A study of Mus musculus with 6 samples.

Results

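The genes described here are 9 members of the phosphoinositide 3-kinase (PI3K) pathway, namely the class I catalytic subunits Pik3ca, Pik3cb, Pik3cd and Pik3cg, the regulatory subunits Pik3r1 and Pik3r5, and the phosphoinositide phosphatases Inpp5d, Inpp4a and Inpp4b. They were chosen by symbol from the 53458 genes with a transcript in the deposited quantifications, and the estimated reads of their 79 annotated transcripts were summed per gene. All 9 were among the 22170 genes with enough reads to be tested.

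Class I PI3K adds a phosphate to position 3 of the inositol ring of a membrane lipid and so makes PIP3, which recruits kinases such as AKT to the plasma membrane. The class IA enzymes pair a catalytic subunit (p110α, p110β or p110δ, from Pik3ca, Pik3cb and Pik3cd) with a regulatory subunit such as p85α from Pik3r1 and answer mainly to receptors with tyrosine kinase activity, whereas the class IB enzyme p110γ, from Pik3cg, pairs with p101 from Pik3r5 and answers to G protein-coupled receptors. p110δ and p110γ are the forms enriched in white blood cells. Among the phosphatases that act on this lipid, SHIP1, the product of Inpp5d, removes the phosphate at position 5 and leaves PI(3,4)P2, from which INPP4A and INPP4B remove the phosphate at position 4.

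RNA was sequenced from sorted bone marrow cells, labelled as acute myeloid leukaemia (AML) blasts, of 3 Cebpa-/p30 Tet2+/+ mice (mice 19, 23 and 24) and 3 Cebpa-/p30 Tet2-/- mice (mice 5, 7 and 8), with 1 library per mouse. Both genotypes, on a C57BL/6 background, carried a Cebpa allele that makes only the short p30 isoform of the myeloid transcription factor C/EBPα beside a floxed Cebpa allele, and the Tet2-/- group also carried floxed alleles of Tet2, which encodes an enzyme that oxidizes 5-methylcytosine. The floxed alleles were deleted by Mx1-Cre, an interferon-inducible recombinase that is not restricted to blood cells, after the marrow had been transplanted into irradiated female congenic recipients aged 10 to 12 weeks at the start. Bone marrow was taken when the recipients were moribund, and live donor-derived cells negative for a T cell, a B cell and an erythroid surface marker were sorted, so that each library holds all the remaining marrow cells of 1 leukaemia and not a purified blast population. The comparison asks which genes differ between the leukaemias with and without Tet2, and because the cells are a mixture, fewer cells of a type and less RNA per cell cannot be told apart.

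The libraries held between 13036643 and 32855343 estimated reads. Tet2 itself stood at 73.6, 79.5 and 98.4 CPM (read counts scaled to library depth) in the Tet2+/+ mice and at 111, 79.4 and 96.7 CPM in the Tet2-/- mice. Its reads were assigned to whole transcripts, so the level does not check a deletion of some exons, and the genotypes are taken from the labels. Cebpa stood at 140, 194 and 287 CPM against 158, 75.7 and 124 CPM. The myeloid genes Mpo and Ptprc, the latter encoding CD45, were high in every library, at 2662 CPM or more and 762 CPM or more. Mpo was nevertheless lower in every Tet2-/- mouse, at 3394, 3091 and 2662 CPM against 4527, 4109.7 and 4229.9 CPM. It belongs to a list of 12 myeloid blast markers, of which 10 had a log2 fold change above 0 and 2 below. Of that list, Ms4a3 and Ly6c2 were higher without overlap. Ms4a3 stood at 248, 137 and 193 CPM in Tet2+/+ and at 331, 291 and 311 CPM in Tet2-/- mice. Among 12 lists of cell type markers, the mature neutrophil list (10 of 10 genes tested) had a log2 fold change above 0 for all 10. Its summed level ranged from 11655 to 58704 CPM in Tet2+/+ and from 25868 to 122121 CPM in Tet2-/- mice. Mouse 23 was lowest and mouse 7 highest. Of the other lists, those of stem and progenitor cells, of basophils and mast cells, and of B and plasma cells did not overlap between genotypes and are given beside Inpp4b.

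The promoter windows of 3 genes are shown because the reads of the members separate their start sites, and because the CpG dinucleotides in them, printed in capitals, are where TET2 mainly acts. Each window runs from 250 bases before to 50 bases after a RefSeq start site on GRCm38.p6, and each is written 5′ to 3′ on the strand of its gene.
Inpp4b, chr8:81342312-81342611, plus strand: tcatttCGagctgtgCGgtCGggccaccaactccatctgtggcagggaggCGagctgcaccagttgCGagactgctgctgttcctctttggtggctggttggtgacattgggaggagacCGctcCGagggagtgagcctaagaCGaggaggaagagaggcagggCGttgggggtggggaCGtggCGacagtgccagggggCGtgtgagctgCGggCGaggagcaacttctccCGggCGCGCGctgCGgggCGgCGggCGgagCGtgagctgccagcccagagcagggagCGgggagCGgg
Pik3r5, chr11:68431875-68432174, plus strand: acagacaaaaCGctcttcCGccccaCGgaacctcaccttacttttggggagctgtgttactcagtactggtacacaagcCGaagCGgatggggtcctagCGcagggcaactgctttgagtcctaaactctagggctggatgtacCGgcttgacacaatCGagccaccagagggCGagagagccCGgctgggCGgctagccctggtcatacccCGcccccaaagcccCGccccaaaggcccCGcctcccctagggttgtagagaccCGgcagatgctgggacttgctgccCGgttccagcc
Pik3r1 long form, chr13:101768168-101768467, minus strand: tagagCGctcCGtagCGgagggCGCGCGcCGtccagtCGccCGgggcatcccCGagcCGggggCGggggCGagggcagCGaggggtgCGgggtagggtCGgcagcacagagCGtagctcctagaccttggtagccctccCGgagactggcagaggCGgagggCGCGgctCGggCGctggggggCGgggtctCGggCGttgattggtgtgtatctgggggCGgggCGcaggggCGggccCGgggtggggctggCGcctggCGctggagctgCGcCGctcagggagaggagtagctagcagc
Pik3r1 internal start, chr13:101692581-101692880, minus strand: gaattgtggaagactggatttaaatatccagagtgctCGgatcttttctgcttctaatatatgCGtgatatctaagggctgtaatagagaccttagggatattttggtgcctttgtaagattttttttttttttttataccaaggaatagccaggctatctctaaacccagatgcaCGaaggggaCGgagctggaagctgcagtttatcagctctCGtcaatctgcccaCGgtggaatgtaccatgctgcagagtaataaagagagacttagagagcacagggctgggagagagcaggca
The Inpp4b window held 25 CpGs, more than 81.4% of the 32544 distinct windows of the same length in the RefSeq table, whose median was 7. The Pik3r5 window held 16 CpGs. The window of the long Pik3r1 form held 34 and that of its internal start 6. Each motif was searched on both strands. The C/EBP core TTGCNNAA was in none of the 15 windows of the 9 genes and in 10.8% of all windows. The GATA core AGATAA was in 1 of the 15, a Pik3cd window, against 11.2% of all windows. The PU.1 core GAGGAA was in 4 of the 15, those of Inpp4b and Inpp5d and both of Pik3cg, against 28.1% of all windows, and was found 2 times in each of them. The Pik3cg windows overlap, and both matches lie in the stretch they share. A match of letters is no evidence of binding, and DNA methylation was not analysed here.

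Of the 9 genes, Inpp4b stood apart. Its mean level was 2.78-fold lower in Tet2-/- than in Tet2+/+ mice, and the genotypes did not overlap. Pik3r5 was the only other member without overlap between genotypes, and it was 1.31-fold higher in Tet2-/- mice. The main test was the quasi-likelihood F-test of edgeR, adjusted over all tested genes after Benjamini and Hochberg. In it, 0 of the 9 passed an adjusted p of 0.05, where 0.0451% of all genes did, and their adjusted p ranged from 0.340 to 0.989. Without adjustment, 1 of the 9 was lower with p under 0.05 (5.12% of all genes) and 0 were higher (3% of all genes). DESeq2 on the same counts called 1 of the 9, Inpp4b, where it called 2.16% of the genes to which it gave an adjusted p. Of the members, 1 did not overlap in the lower direction (7.94% of all genes) and 1 in the higher direction (6.41% of all genes). The median log2 fold change of the 9 was 0.08, against 0.00 for all genes tested, with 5 members above 0 and 4 below.

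**Figure D1:**
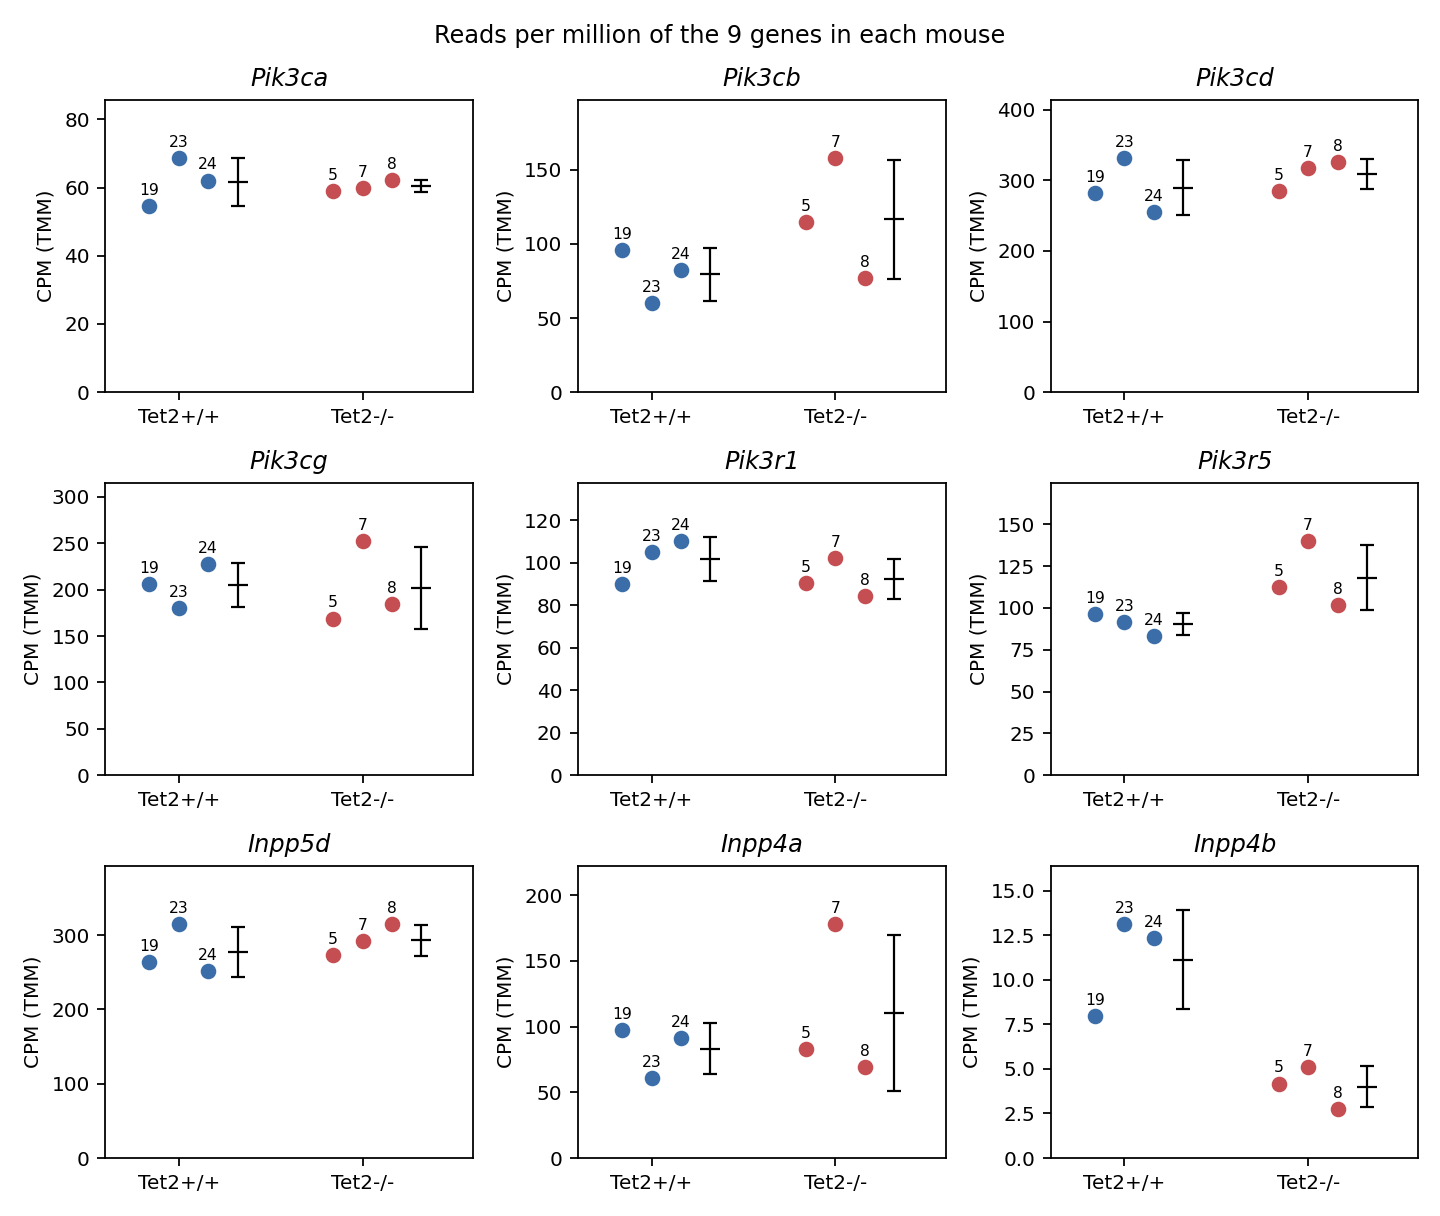
Level in CPM after TMM scaling (vertical axes from 0) of each of the 9 genes in the 3 Tet2+/+ mice (blue) and the 3 Tet2-/- mice (red), with mouse numbers above the points and the mean and SD of each genotype as a black bar. Inpp4b lies at 7.96 CPM or above in every Tet2+/+ mouse and at 5.08 CPM or below in every Tet2-/- mouse, and mouse 7 is the highest point for Pik3cb, Pik3cg, Pik3r5 and Inpp4a.

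Among the catalytic subunits, Pik3cd, which encodes p110δ, had the most reads. It was measured at 282, 331 and 254 CPM in the Tet2+/+ mice 19, 23 and 24 and at 285, 317 and 326 CPM in the Tet2-/- mice 5, 7 and 8. The genotypes overlapped throughout, and the log2 fold change was 0.10 (SE 0.18, 95% interval -0.32 to 0.52). Pik3cg, which encodes p110γ, was measured at 206, 180 and 228 CPM in Tet2+/+ and at 169, 252 and 184 CPM in Tet2-/- mice. The highest and the lowest of the 6 values were both in Tet2-/- mice, and the log2 fold change was -0.02 (SE 0.21, 95% interval -0.51 to 0.47).

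Pik3ca, which encodes the widely expressed p110α, was the most even member. Its level was 54.4, 68.6 and 62.0 CPM in Tet2+/+ and 59.1, 59.9 and 62.3 CPM in Tet2-/- mice, so that the Tet2-/- values lay inside the Tet2+/+ range. The log2 fold change was -0.03 (SE 0.15), with a 95% interval from -0.39 to 0.33, that is from 0.764-fold to 1.26-fold.

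Pik3cb, which encodes p110β, varied most among the catalytic subunits. It was measured at 95.9, 60.0 and 82.4 CPM in Tet2+/+ and at 115, 158 and 77.1 CPM in Tet2-/- mice. Mice 5 and 7 were above every Tet2+/+ mouse, whereas mouse 8 was below 2 of them. The log2 fold change was 0.55 (SE 0.30, 95% interval -0.15 to 1.26, unadjusted p = 0.105 and adjusted p = 0.679 in edgeR). It was 0.11 without mice 7 and 23, an alternative chosen after the neutrophil markers had been seen. These mice held the highest and the lowest Pik3cb value, so leaving both out lowers the difference whatever the cell make-up. The 6 mice stood in the same order for Pik3cb as for the summed level of the mature neutrophil markers, from mouse 7 through 5, 19, 24 and 8 to 23. The part of these cells in the difference was not tested.

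Counted per transcript length, p110δ and p110γ mRNA made up most of the class I catalytic subunits in every mouse. Levels between genes were compared in TPM, which corrects each transcript's reads for its length and brings every library to the same total. Because short annotated fragments took 64.8% of the TPM of Pik3ca from few reads, the shares are given from transcripts of at least 1000 bases, a choice made after the values were seen, beside those from all transcripts. On the long transcripts, Pik3cd took 42.7%, 50.7% and 39.8% in Tet2+/+ and 43.4%, 38.1% and 48.6% in Tet2-/- mice. Pik3cg took 28.3% to 38% over the 6 mice, Pik3cb 10.2% to 21.5% and Pik3ca 6.27% to 9.01%. The order Pik3cd, Pik3cg, Pik3cb, Pik3ca held in each of the 6 libraries. Most of the Pik3cb TPM, however, was of Pik3cb-203, annotated as a target of nonsense-mediated decay. The protein-coding Pik3cb-201 had 1.42 to 3.20 TPM, below the protein-coding Pik3ca-203 at 3.53 to 5.40 TPM in every mouse. None of the shares of the catalytic subunits separated the genotypes. The exact two-sided permutation p was 0.3 to 0.8, where the smallest possible p with 3 against 3 mice is 0.1.

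With all transcripts counted, Pik3cd took 36.7% to 46.8% and Pik3cg 28.2% to 37.0%. Pik3ca then took 12.3% to 18.2%, and Pik3cb 6.78% to 15.7%, so that Pik3ca ranked above Pik3cb in 4 of the 6 mice. In mouse 24, Pik3cg at 37.0% was then above Pik3cd at 36.7%. Both orders therefore depend on which transcripts are counted. The genotypes overlapped for all 4 shares on this count as well.

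**Figure D2:**
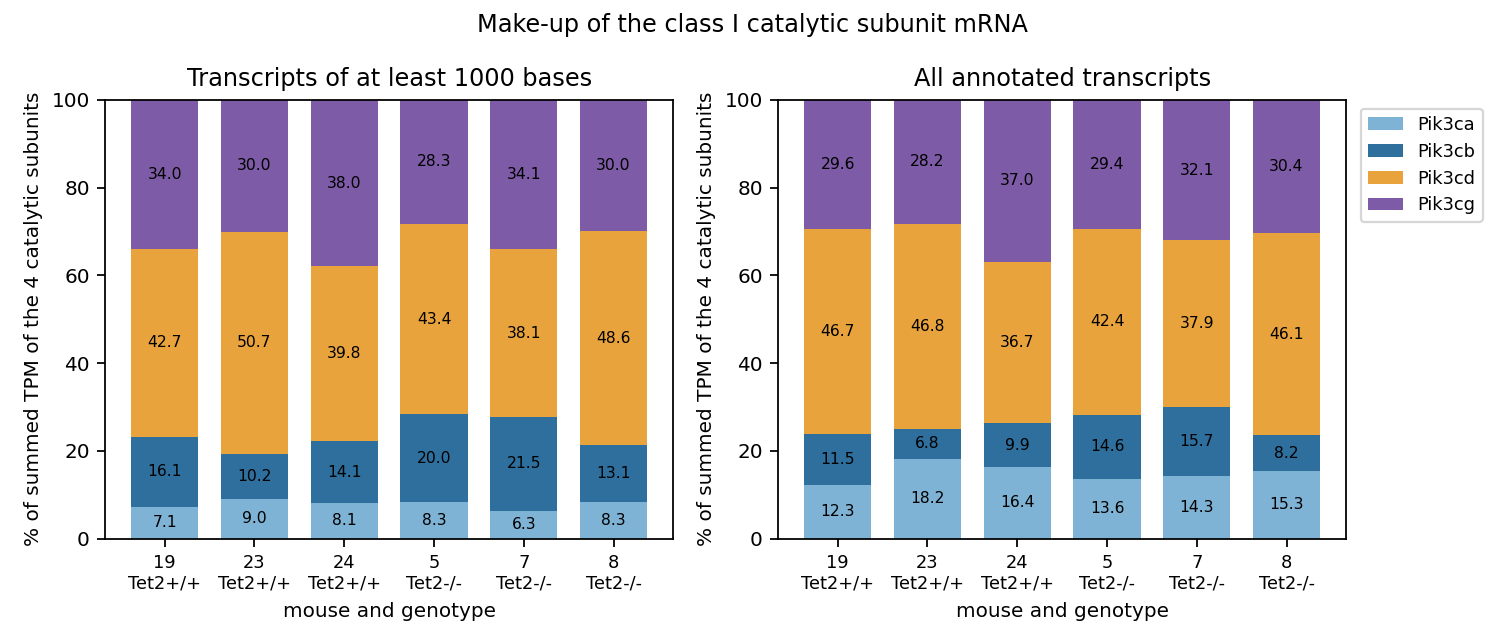
Share of each catalytic subunit in the summed TPM of Pik3ca, Pik3cb, Pik3cd and Pik3cg (vertical axis, percent) in each of the 6 mice, from transcripts of at least 1000 bases on the left and from all annotated transcripts on the right. Pik3cd and Pik3cg together take the larger part of every bar, and the bars of the 2 genotypes overlap for each subunit.

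Of the regulatory subunits, Pik3r5, which encodes the p101 partner of p110γ, was higher in every Tet2-/- mouse. It was measured at 96.2, 91.3 and 83.2 CPM in Tet2+/+ and at 113, 140 and 102 CPM in Tet2-/- mice. The means were 90.2 ± 6.58 CPM and 118 ± 19.6 CPM (SD, n = 3 each), and the lowest Tet2-/- value was above the highest Tet2+/+ value. The log2 fold change was 0.39 (SE 0.17, 95% interval -0.02 to 0.80), which did not pass edgeR's test at an unadjusted p of 0.060 and an adjusted p of 0.632. It ranged from 0.21 to 0.48 over 14 other ways of processing the data, with an adjusted p of 0.531 or more in each, and mouse 7 was the highest of the 6. Nearly all Pik3r5 reads, 94.7% to 97.4% per mouse, were assigned to transcripts that start within 50 bases of the RefSeq start site printed above.

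Pik3r1, which encodes p85α and the shorter p55α and p50α, was measured at 89.9, 105 and 110 CPM in Tet2+/+ and at 90.4, 102 and 84.1 CPM in Tet2-/- mice. The genotypes overlapped, and the log2 fold change was -0.14 (SE 0.16, 95% interval -0.52 to 0.24). With length-scaled counts it was 0.12, so no direction is given. The long form dominated the reads. Transcripts that start within 50 bases of the CpG-rich long-form window took 92.6% to 98.0% of the Pik3r1 reads per mouse, against 0.292% to 2.06% for the transcript at the internal start with 6 CpGs. Counted within 100 bases, which adds Pik3r1-205, the internal start took 1.97% to 7.01% of the reads.

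Set against its partner, Pik3r5 was lower than Pik3cg by 0.41 to 1.19 on the log2 TPM scale over the 6 mice when long transcripts were counted (pseudocount 0.1 TPM). The ratio was -0.89, -0.78 and -1.19 in Tet2+/+ and -0.41, -0.72 and -0.67 in Tet2-/- mice, which did not overlap (difference 0.36, exact permutation p = 0.1, the smallest possible). With all transcripts the genotypes overlapped and the difference was 0.23 (exact permutation p = 0.4), whereas with estimated counts they did not overlap and it was 0.42 (exact permutation p = 0.1). The ratio of Pik3r1 to the summed class IA catalytic subunits differed by -0.01 with all transcripts (exact permutation p = 0.9), and by -0.31 both with long transcripts and with estimated counts, where the genotypes did not overlap (exact permutation p = 0.1). For both ratios, the genotypes thus overlapped in TPM over all transcripts, and not in TPM over long transcripts or in estimated counts.

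Of the phosphatases, Inpp5d, which encodes SHIP1, was abundant and even. It was measured at 264, 315 and 252 CPM in Tet2+/+ and at 273, 292 and 315 CPM in Tet2-/- mice. The genotypes overlapped, and the log2 fold change was 0.08 (SE 0.17, 95% interval -0.33 to 0.49).

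Inpp4a, one of the pair of PI(3,4)P2 4-phosphatases, was measured at 97.1, 60.9 and 91.3 CPM in Tet2+/+ and at 83.1, 178 and 68.9 CPM in Tet2-/- mice. Mouse 7 was far above the others, and the remaining 5 values overlapped. The log2 fold change was 0.40 (SE 0.38, 95% interval -0.50 to 1.30) and it was -0.13 without mouse 7, so its direction rests on that library. Mouse 7 also had the highest and mouse 23 the lowest level of the mature neutrophil markers, as they did for Inpp4a. Without both of these mice the log2 fold change of Inpp4a was -0.31, and leaving out the highest and the lowest value lowers it whatever the cell make-up.

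Inpp4b, the paralog of Inpp4a, was the scarcest member and the one with the largest fold change. Its estimated reads numbered 133, 245 and 175 in the Tet2+/+ mice 19, 23 and 24, against 132, 79 and 51 in the Tet2-/- mice 5, 7 and 8. Scaled to depth, these were 7.96, 13.1 and 12.3 CPM in Tet2+/+ and 4.18, 5.08 and 2.77 CPM in Tet2-/- mice. The highest Tet2-/- value was below the lowest Tet2+/+ value, and the means were 11.1 ± 2.78 CPM and 4.01 ± 1.17 CPM (SD, n = 3 each).

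The log2 fold change of Inpp4b was -1.47 (SE 0.35, 95% interval -2.30 to -0.65). In edgeR the unadjusted p was 0.0038 and the adjusted p 0.340, so that the gene did not pass over 22170 genes. DESeq2 on the same counts gave a log2 fold change of -1.47 with an adjusted p of 0.00796. DESeq2 on length-scaled counts gave -2.19 with an adjusted p of 0.000445. Those counts are made from TPM, and 64.8% of the Inpp4b TPM came from transcripts under 1000 bases with few reads. Over all transcripts its mean was 3.13 TPM in Tet2+/+ and 0.62 TPM in Tet2-/- mice. On transcripts of at least 1000 bases the means were 0.93 and 0.39 TPM. The exact permutation test of the 6 CPM values gave p = 0.1, the smallest that 3 against 3 mice allow. The gene was lower in all 14 other ways of processing, with a log2 fold change from -2.19 to -1.27 and an adjusted p from 0.000445 to 0.853, and 2 of the 14, both with DESeq2, passed the threshold.

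**Figure D3:**
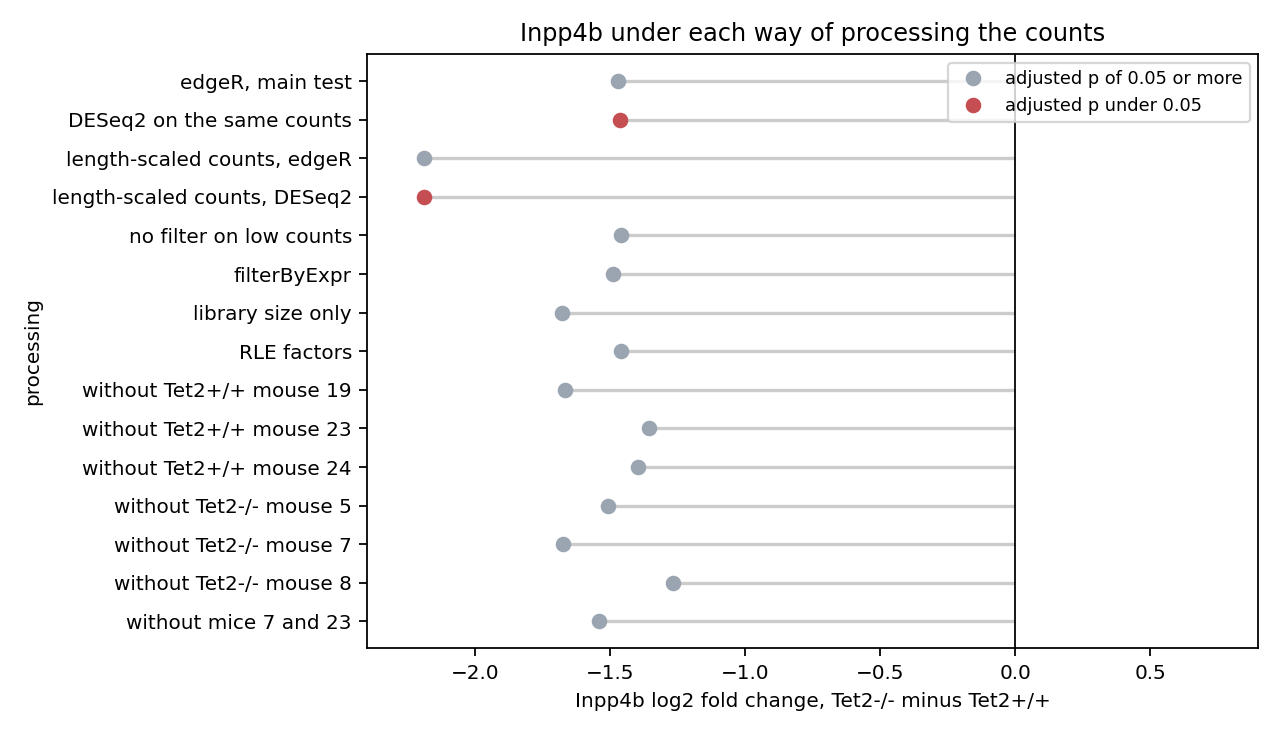
Log2 fold change of Inpp4b (Tet2-/- minus Tet2+/+, horizontal axis) in the main test and in 14 other ways of processing the counts (vertical axis), red where the adjusted p was under 0.05. All values lie between -2.19 and -1.27, and the 2 red points are both from DESeq2.

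The summed levels of 3 marker lists did not overlap between the genotypes, as for Inpp4b, and in each the separation was lost without 1 gene. The summed level of the stem and progenitor list (9 of 9 genes tested, 8 with a log2 fold change below 0) was 284 to 408 CPM in Tet2+/+ and 148 to 217 CPM in Tet2-/- mice. Without Cd34, at 170, 310.0 and 193 CPM against 90.0, 32.1 and 132 CPM, the sums overlapped, at 98.2 to 148 CPM against 58.2 to 127 CPM. For basophils and mast cells (7 of 10 tested, 4 below 0 and 3 above) the sum was 437 to 524 CPM against 181 to 376 CPM. The mast cell gene Tpsb2 had no reads in any library, and Fcer1a and Prss34 had too few to be tested. Cpa3, a mast cell protease, was at 263, 362 and 336 CPM against 87.7, 47.5 and 16.8 CPM, and without it the sums were 74.6 to 260.2 CPM against 164 to 329 CPM. Gata2 was also lower without overlap. The authors reported it lower after Tet2 mutation in cultured Cebpa-p30/p30 cells too, and describe it as a target of CEBPA and TET2. By contrast, Hdc, the histamine-forming enzyme, was at 206, 37.7 and 49.1 CPM against 139, 299.8 and 146 CPM. For B and plasma cells (9 of 9 tested, 8 below 0) the sum was 161 to 264 CPM against 51.4 to 109 CPM, with no marker at 0 reads throughout. Jchain, which encodes the joining chain of secreted antibodies, was at 98.5, 165 and 135 CPM against 44.1, 27.6 and 26.6 CPM, and without it the sums overlapped, at 25.8 to 99.1 CPM against 23.9 to 65.1 CPM. Of the 105 tested markers of all 12 lists, 11 were lower without overlap (10.5%, against 7.94% of all genes) and 2 higher (1.90%, against 6.41%). In edgeR 0 of them passed an adjusted p of 0.05, whereas DESeq2 called 7 lower and 1 higher (8.70% of 92, against 2.16% of all genes). Those lower were Cpa3, Gata2, Jchain, Mzb1, the eosinophil marker Il5ra, the NK cell marker Ncr1 and the plasmacytoid dendritic cell marker Siglech, and the one higher was Ly6c2 of the myeloid blast list. The summed level of that list overlapped between genotypes, but without Mpo it was 5599 to 7799 CPM in Tet2+/+ and 8091 to 11285 CPM in Tet2-/- mice. The part of such cells in the lower Inpp4b level was not tested. Without mice 7 and 23, which were farthest apart in neutrophil markers, the log2 fold change of Inpp4b was -1.54. As these mice were chosen by neutrophil markers, that value does not address the 3 lists above.

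Most reads of Inpp4b were assigned away from the CpG-rich RefSeq start site. Inpp4b-209, a protein-coding transcript of 8067 bases and 23 exons at chr8:81741306-82127914, took 85.8% of the reads over the 6 mice. Its estimated reads were 115, 210 and 152 in Tet2+/+ and 128, 60.9 and 33 in Tet2-/- mice. It starts 398744 bases downstream of the RefSeq start site inside the same locus. The 5 transcripts that start at the RefSeq site took 4.52% of the reads and between 0% and 22.9% per mouse. These assignments are model estimates, since the transcripts share most of their coding exons. Tested alone among 66957 transcripts, Inpp4b-209 had a log2 fold change of -1.58 (unadjusted p = 0.009, adjusted p = 0.770 in edgeR).

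The balance of the phosphatases was lower for Inpp4b in each Tet2-/- mouse. On the log2 TPM scale, Inpp4b stood below Inpp4a by 2.86, 0.59 and 1.90 in Tet2+/+ and by 3.78, 4.97 and 3.20 in Tet2-/- mice. Against Inpp5d, the ratio was -5.90, -4.91 and -5.19 in Tet2+/+ and -7.32, -7.69 and -7.08 in Tet2-/- mice. Neither ratio overlapped between genotypes (exact permutation p = 0.1 for both, the smallest possible). The differences were -2.20 against Inpp4a and -2.03 against Inpp5d with all transcripts, and -1.24 and -1.02 with long transcripts. The long transcripts leave out Inpp4b-214, a fragment of 585 bases with 33 reads in all that held up to 59.5% of the Inpp4b TPM of a mouse. They also leave out Inpp4b-204, of 358 bases with 8 reads and up to 43.5%, and Inpp4b-213, of 412 bases with 10 reads and up to 28.4%.

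By level per length, the 9 genes spanned a wide range. On long transcripts, Inpp5d averaged 32.3 TPM over the 6 mice (28.7 to 38.5), Pik3cd 29.3 TPM (25.6 to 35.4) and Pik3cg 21.8 TPM (16.7 to 26.1). Pik3r5 averaged 12.6 TPM (11.2 to 15.9), Inpp4a 10.7 TPM (7.35 to 19.1), Pik3cb 10.6 TPM (7.14 to 16.5) and Pik3r1 8.09 TPM (6.93 to 9.84). Most of the Pik3cb value was of Pik3cb-203, annotated as a target of nonsense-mediated decay. Pik3ca averaged 5.23 TPM (4.51 to 6.29) and Inpp4b 0.66 TPM (0.32 to 1.12). Neighbours in this order overlapped in range except at 3 steps, from Pik3cg to Pik3r5, from Pik3r1 to Pik3ca and from Pik3ca to Inpp4b. With all transcripts the first 3 ranks and the last were held by the same genes, but the levels moved. Inpp5d averaged 119 TPM, of which 72.8% came from short transcripts, against 41.8 TPM for Pik3cd, and Pik3ca averaged 14.8 TPM and Inpp4b 1.88 TPM.

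**Figure D4:**
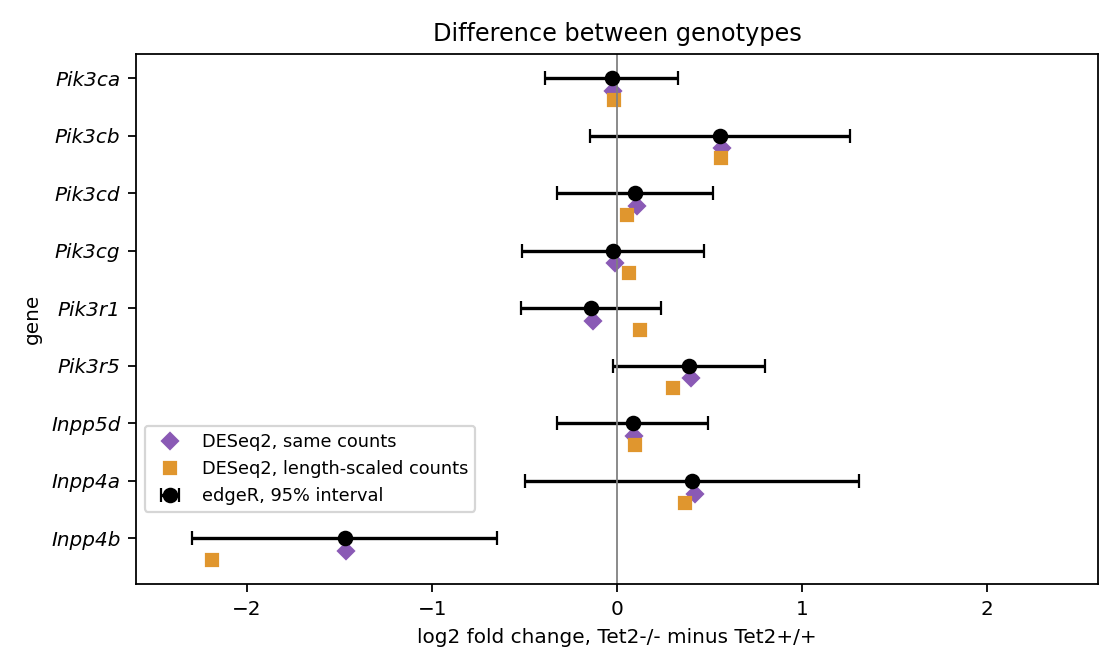
Log2 fold change of each gene (Tet2-/- minus Tet2+/+, horizontal axis) with the 95% interval from edgeR as black bars, beside the estimates of DESeq2 on the same counts (purple) and on length-scaled counts (orange). The interval of Inpp4b, -2.30 to -0.65, is the one of the 9 that leaves out 0, and that of Pik3r5 begins at -0.02.

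Apart from Inpp4b, the 8 members had 95% intervals that lay between -0.52 and 1.30 on the log2 scale. A fall below 0.698-fold or a rise above 2.47-fold is outside the interval of each, and for single members the bounds were narrower. The upper bound ran from 1.18-fold for Pik3r1 to 2.47-fold for Inpp4a, and the lower bound from 0.698-fold for Pik3r1 to 0.986-fold for Pik3r5. The spread between mice differed among them. The coefficient of variation in Tet2-/- mice was 2.77% for Pik3ca and 53.9% for Inpp4a.

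The use of isoforms was compared for the 8 members with several transcripts of at least 10% of the gene's TPM each, which gave 20 shares. Of these, 2 did not overlap between genotypes, both lower in Tet2-/- mice, against 11.3% of all such shares in the transcriptome. Pik3cd-207, a processed transcript of 404 bases, had 19%, 13.6% and 16% of the Pik3cd TPM in Tet2+/+ and 6.23%, 9.09% and 10.7% in Tet2-/- mice, on 164 reads in all. Inpp4a-203, a protein-coding transcript of 3004 bases from an internal start, had 12.7%, 14.7% and 14.3% in Tet2+/+ and 9.47%, 10.9% and 9.11% in Tet2-/- mice. Both differences had an exact permutation p of 0.1, the smallest possible. In the test of single transcripts, 0 of the 58 member transcripts with enough reads passed an adjusted p of 0.05 in edgeR, and 4 had an unadjusted p under 0.05. Over all 66957 transcripts 0 passed (0%), and 3534 had an unadjusted p under 0.05.

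Start sites differed among the other members as well. Of the Pik3cg reads, 79.8% to 86.5% per mouse were assigned to transcripts at 1 RefSeq start site, and of the Inpp4a reads, 85.9% to 88.2%. For Pik3cd, the RefSeq sites took 29.3% to 38.3% and 0.168% to 5.00%, with 0% at the third, and 46.8% of the reads went to Pik3cd-214, which starts 1895 bases from the nearest of them. For Pik3cb, 76.5% of the reads went to Pik3cb-203, a transcript annotated as a target of nonsense-mediated decay, and its share of the Pik3cb TPM was 77.5% to 83.3% over the 6 mice without separating the genotypes. No annotated transcript of Pik3cb or Pik3ca starts within 100 bases of its RefSeq site, and the transcripts with the most reads start 286 and 606 bases away. For Inpp5d, 21.8% to 30.5% of the reads per mouse were assigned within 50 bases of the RefSeq site and 37.7% to 46.5% within 100 bases, while 47.7% went to Inpp5d-208, which starts 55927 bases from it. Reads mostly away from the RefSeq site were thus not particular to Inpp4b.

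The other genes of the pathway were followed in 6 lists of 98 genes, of which 95 were tested. In edgeR, 0 of them passed an adjusted p of 0.05, with 3 lower (3.16%, against 5.12% of all genes) and 2 higher (2.11%, against 3% of all genes) at an unadjusted p under 0.05. DESeq2 on the same counts called 2 of the 95 (2.11%, against 2.16% of all genes with an adjusted p), Gab1 and Plcg1, both lower in Tet2-/- mice. These shares were near or below those over all genes, and the single lists hold 11 to 22 tested genes each. The median log2 fold change of the 95 genes was 0.11, with 68 above 0 and 27 below, against a median of 0.00 over all genes.

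**Figure D5:**
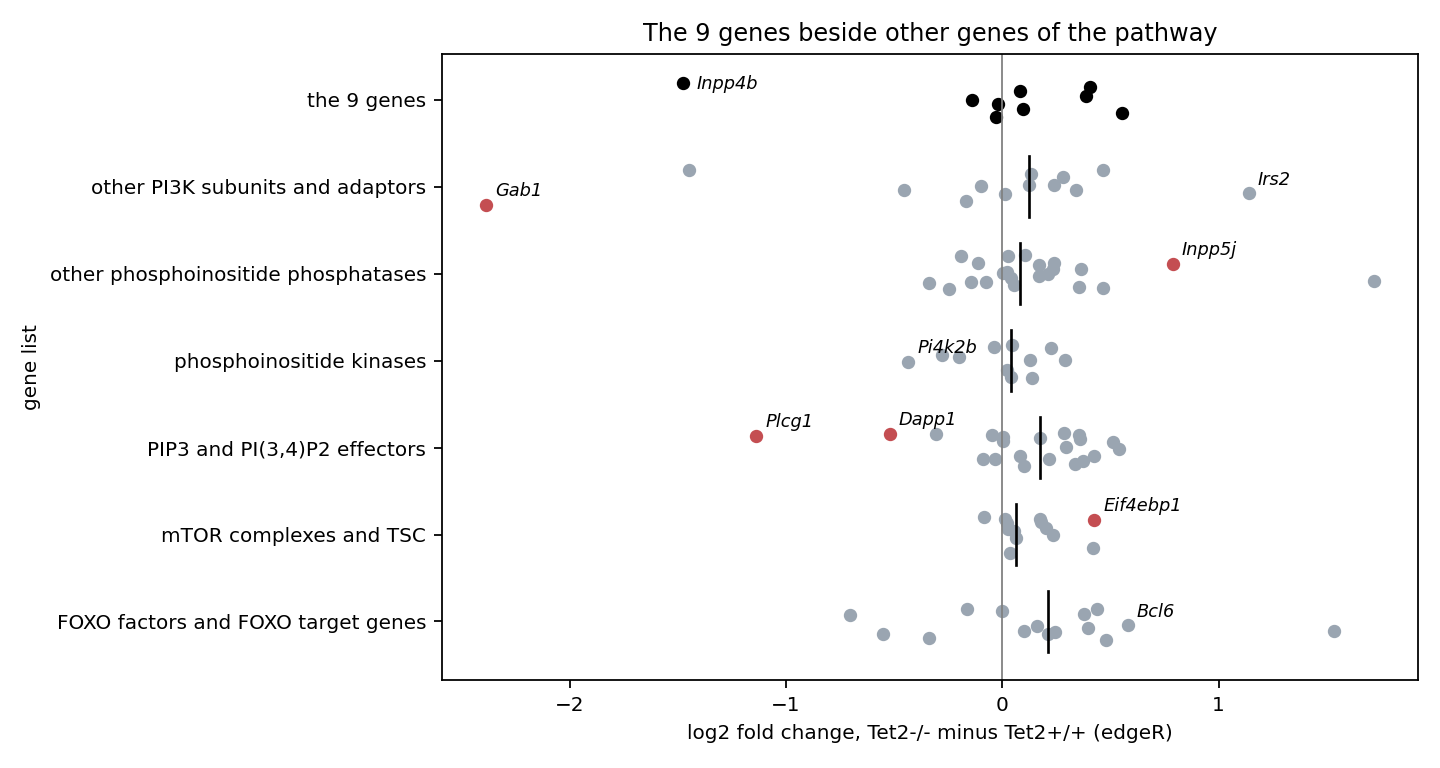
Log2 fold change in edgeR (Tet2-/- minus Tet2+/+, horizontal axis) of the 9 genes (black) and of the tested genes of 6 pathway lists (grey, or red where the unadjusted p was under 0.05), with a black line at the median of each list. Inpp4b, Gab1, Plcg1 and the unlabelled Pik3r3, scarce at 1.21 CPM, lie to the left of -1, and the list medians lie between 0.04 and 0.21.

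Among the other PI3K subunits and adaptors, 13 of 15 genes were tested, and 1 was lower (7.69%, against 5.12% of all genes) and 0 higher at an unadjusted p under 0.05. Gab1, a docking protein that brings p85α to activated receptors, was measured at 6.88, 11.9 and 6.83 CPM in Tet2+/+ and at 2.56, 0.58 and 1.68 CPM in Tet2-/- mice. The genotypes did not overlap, and the log2 fold change was -2.39 (SE 0.57, adjusted p = 0.342 in edgeR and 0.00204 in DESeq2). Irs2, an adaptor of the insulin receptor, had a log2 fold change of 1.14 (SE 0.63) with overlap. Pik3ap1, the adaptor BCAP, was the most abundant of the list at 66.7 CPM and had a log2 fold change of 0.34 (SE 0.20).

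Among the other phosphoinositide phosphatases, all 22 genes were tested, and 0 were lower and 1 higher (4.55%, against 3% of all genes) at an unadjusted p under 0.05. Inpp5j, a 5-phosphatase, was measured at 44.3, 44.8 and 36.3 CPM in Tet2+/+ and at 51.6, 106 and 59.1 CPM in Tet2-/- mice, without overlap (log2 fold change 0.79, SE 0.29, adjusted p = 0.591 in edgeR). An exon of Pla2g3 on the opposite strand shares 401 bases with it, and the library kit does not mark strand. Fig4 had a log2 fold change of -0.25 (SE 0.17). The myotubularin Mtmr3, the most abundant of the list at 307 CPM, had one of 0.35 (SE 0.33). For Mtmr3 it was -0.13 without mice 7 and 23, its highest and lowest, a removal that lowers the value in any case.

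Of the 11 other phosphoinositide kinases, which make or use the lipids around PI3K, 0 had an unadjusted p under 0.05 in either direction. Pi4k2b had a log2 fold change of -0.43 (SE 0.18) and did not overlap between genotypes, nor did Pip4k2c at 0.22 (SE 0.15). Pip5k1c, the most abundant at 150.0 CPM, had a log2 fold change of -0.04 (SE 0.16), which was 0.11 with length-scaled counts in edgeR.

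Of the 21 effectors that bind PIP3 or PI(3,4)P2, or act just below them, 2 were lower (9.52%, against 5.12% of all genes) and 0 higher at an unadjusted p under 0.05. Plcg1, a phospholipase C with a lipid-binding domain, was measured at 31.2, 31.9 and 40.8 CPM in Tet2+/+ and at 13.3, 19.9 and 14.1 CPM in Tet2-/- mice. The genotypes did not overlap, and the log2 fold change was -1.14 (SE 0.23, adjusted p = 0.267 in edgeR and 0.00689 in DESeq2). Exons of Zhx3 on the opposite strand share 379 bases with Plcg1. Dapp1, an adaptor that binds both lipids, was measured at 84.4, 110 and 107 CPM against 68.8, 65.8 and 76.0 CPM (log2 fold change -0.52, SE 0.17, adjusted p = 0.539 in edgeR). Akt2 had a log2 fold change of 0.37 (SE 0.17) without overlap, and Plcg2, the most abundant of the list at 383 CPM, one of 0.22 (SE 0.22).

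Of the 13 genes of the mTOR complexes and their TSC inhibitor, which lie downstream of AKT, 0 were lower and 1 higher (7.69%, against 3% of all genes) at an unadjusted p under 0.05. Eif4ebp1, a translation repressor that mTOR phosphorylates, was measured at 43.8, 42.2 and 33.9 CPM in Tet2+/+ and at 58.1, 53.9 and 49.2 CPM in Tet2-/- mice (log2 fold change 0.43, SE 0.17, adjusted p = 0.604 in edgeR). Rictor had a log2 fold change of -0.09 (SE 0.20). Rps6 had one of 0.18 (SE 0.34), and 45.0% of its words of 31 bases also occur in transcripts of other genes, so its level is uncertain.

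Of 15 tested genes among the FOXO factors and their targets, which AKT holds in check, 0 had an unadjusted p under 0.05 in either direction. Bcl6 had a log2 fold change of 0.58 (SE 0.30) with overlap. Sesn1 had one of -0.34 (SE 0.59), which was 0.48 without mice 7 and 23. Mouse 23 held its highest and mouse 7 its lowest value, so this removal raises the value in any case.

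Plcg1, Dapp1 and Cited2 were the pathway genes whose profile over the 6 mice was closest to that of Inpp4b. Likeness was measured as the root mean square difference of log2 CPM after centring each gene, over 91 pathway genes of at least 5 CPM. It was 0.33 for Plcg1, 0.59 for Dapp1 and 0.64 for Cited2, against a median of 0.90, where smaller is closer. A gene with the same level in every mouse would give 0.82. Cited2, a transcriptional co-regulator, nevertheless overlapped between genotypes, at 245, 349 and 370 CPM in Tet2+/+ and 283, 413 and 164 CPM in Tet2-/- mice. The measure is a description over mice that also differ in genotype, depth and cell make-up.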

How the data were processed

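RNA was sequenced from sorted bone marrow cells of 6 leukaemic mice, 3 per genotype. The authors quantified the reads with Salmon 0.12.0 against Ensembl transcripts of GRCm38 through the bcbio pipeline, and deposited for each transcript an estimated count of reads, not normalized between mice. The TPM values they deposited correct for effective length and add up to the same total in every library. Here the estimated counts of 136288 transcripts were summed to genes of GENCODE M21, and rounded. Genes with a sum of normalized counts of 10 or more entered edgeR 4.0.16 (R 4.3.3), where genotypes were compared by the quasi-likelihood F-test after TMM scaling, with genotype as the only term. CPM are counts relative to the TMM-scaled library size. Adjusted p-values are those of Benjamini and Hochberg over all tested genes, and 0.05 was the threshold. A further 112 transcripts, which GENCODE M21 ties to no gene and which took 0.0307% to 0.0416% of the reads, were not used. The biological coefficient of variation was 43.6%, and no library repeated another. The labels do not name the donor of each mouse, and mice of 1 genotype may share a donor, so the p-values measure only the spread between these recipients, which may not be independent.

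Fold changes are Tet2-/- over Tet2+/+. Single values, isoform shares and log2 TPM ratios (pseudocount 0.1 TPM) were compared by exact two-sided permutation with scipy 1.17.1. DESeq2 1.42.0, length-scaled counts made from TPM, no filter, filterByExpr, library size alone, RLE factors and leaving out each mouse were the alternatives. Counting only transcripts of at least 1000 bases, and leaving out mice 7 and 23, were added after the values were seen. The tests were checked on simulated counts. Promoter sequences come from RefSeq on GRCm38.p6, with windows for all 9 genes. Exons of the 9 genes overlap those of no other annotated gene. Words of 31 bases shared with transcripts of other genes made up 0% to 5.98% of each member.

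The 9 genes, the 6 pathway lists and the 12 marker lists were chosen with earlier results of these data known. Named beside the 9 genes are Tet2, Cebpa and, from each pathway list, every gene past the threshold, the gene of lowest p in each direction and the gene of highest CPM, all at a mean of at least 5 CPM, with the 3 genes closest in profile to Inpp4b. Marker genes and Pik3r3 were named after their values were seen. Some genes that this rule selects are not reported here.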

Additional observations from a re-analysis of the deposited data

How the results depend on the processing

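No paired analysis was possible because the mouse numbers in the labels are not shared between the genotypes. The count of called members was 0 in edgeR under every setting, but 1 with DESeq2 on the same counts and 1 with DESeq2 on length-scaled counts, both times Inpp4b (log2 fold change -1.47 and -2.19). With the same 2 settings the count was 1 and 1 among the 13 tested other PI3K subunits and adaptors (Gab1), and 1 and 2 among the 21 effectors (Plcg1 in both). Over all genes, DESeq2 called 385 of 22170 on the same counts and 386 of 22321 on length-scaled counts. These totals include genes without an adjusted p. The cause of the difference between edgeR and DESeq2 was not tested. The difference between genotypes in the log2 ratio of Inpp4b to Inpp5d, -2.03 in TPM over all transcripts, was -1.57 with estimated counts, -1.02 with long transcripts and -1.26 with a pseudocount of 1 TPM. That in the ratio of Pik3r1 to the class IA catalytic subunits, -0.01 in TPM over all transcripts, was -0.31 with estimated counts and -0.31 with long transcripts. Without one mouse at a time, these differences ranged from -2.31 to -1.82 and from -0.12 to 0.04, and the log2 fold change of Inpp4b from -1.67 to -1.27.

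The sign of small log2 fold changes turned as follows. With length-scaled counts it was, in edgeR and DESeq2, 0.057 and 0.062 for Pik3cg, 0.12 and 0.12 for Pik3r1, 0.11 and 0.12 for Pip5k1c, 0.049 and 0.049 for Sesn1, -0.046 and -0.049 for Tet2. With library size alone, which moved the median of all genes by -0.17, it was -0.081 for Pik3cd and -0.093 for Inpp5d. Without mice 7 and 23 it was 0.058 for Pik3ca, -0.31 for Inpp4a, -0.13 for Mtmr3 and 0.48 for Sesn1. Without one mouse at a time, the log2 fold change ranged from -0.12 to 0.034 for Pik3ca, from -0.22 to 0.086 for Pik3cg, from -0.13 to 0.65 for Inpp4a, from -0.12 to 0.028 for Pip5k1c, from -0.24 to 0.042 for Rictor, from -0.050 to 0.49 for Rps6, from -1.25 to 0.096 for Sesn1, from -0.52 to 0.11 for Cited2. Leaving out mouse 7 turned Inpp4a. Inpp4b and Pik3r5 kept their direction under all 14 settings. Depth limits Inpp4b, with 51 to 245 reads per library.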
